A study of Mus musculus with 2 samples.

Results

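The genes described here are 10 mouse genes for proteins that the liver secretes into plasma, namely the fetuins Ahsg and Fetub, the kininogens Kng1 and Kng2, the histidine-rich glycoprotein gene Hrg, the inter-alpha-trypsin inhibitor heavy chains Itih1, Itih2, Itih3 and Itih4, and Ambp, which encodes their light chain. They are defined by name and family, and all 10 were found among the 43346 Ensembl genes of the deposited tables, with 33 annotated transcripts. The samples are livers of 2 pups on the day of birth (postnatal day 0) of the B6NCrl strain, an inbred C57BL/6N mouse, which were littermates from 1 pregnancy and of unrecorded sex. Each library came from 1 whole liver, and no genotype or treatment is given beyond the strain, so the 2 livers are the 2 replicates of 1 group and there is no contrast between conditions. The libraries held 42124582 expected counts (pup 1) and 41443673 (pup 2), of which the 10 genes took 1912447 and 1837339.

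Ahsg, Fetub, Hrg and the kininogens belong to the cystatin superfamily and carry cystatin-like domains. Fetuin-A, the product of Ahsg, binds calcium phosphate and keeps it from precipitating in blood, and fetuin-B inhibits ovastacin, the egg protease that hardens the zona pellucida. Kininogens are cut by kallikreins to release bradykinin, a short peptide that dilates vessels and raises their permeability. Inter-alpha-trypsin inhibitor heavy chains are joined to bikunin, the protease inhibitor cut from the Ambp precursor, through a chondroitin sulfate chain, and can be passed from it to hyaluronan. Hepatocytes are the main source of these plasma proteins.

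All 10 genes stood at 100 TPM (a length-corrected level, scaled to a fixed total per library) or more in both livers, a level that 8.48% of the 12332 genes detected at 1 TPM or more in both livers reached. Ahsg, Kng1, Ambp and Itih3 passed 1000 TPM in both, as did 0.892% of the detected genes. Together the 10 genes made up 3.39% ± 0.107 (SD, n = 2) of all TPM and 4.49% ± 0.0754 of all expected counts. Ahsg alone held 67.8% ± 0.973 of that sum of TPM. In bulk tissue, fewer cells of a type and less RNA per cell cannot be told apart, so each level is an average over all cells of a liver. The hepatocyte markers were all detected (8 of 8, with summed levels of 83785 and 78547 TPM), and erythroid markers (6 of 6 detected) summed to 64180 and 67017 TPM.

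Among the fetuins, Ahsg (ENSMUSG00000022868.5, chromosome 16, 22891277 to 22899449, plus strand, GRCm38) stood at 23739.6 TPM (pup 1) and 22252 TPM (pup 2). Its mean of 22996 ± 1052 TPM (SD, n = 2) placed it at rank 6 among all genes, between the high-density lipoprotein gene Apoa1 at 23975 ± 145 TPM, and the adult beta-globin gene Hbb-bt at 21639 ± 257 TPM. The level of Ahsg was above that of albumin (Alb, 14198 ± 731 TPM) in both livers, by 0.70 ± 0.0083 on the log2 scale, or 1.62-fold. By expected counts, which are not corrected for length, the log2 ratio of Ahsg to Alb was 0.20 ± 0.0083. Alpha-fetoprotein (Afp), the fetal serum protein, stood at 9945 ± 298 TPM. Ahsg lay 1.21 ± 0.11 above Afp on the log2 scale (0.68 ± 0.11 by expected counts). Fetub (ENSMUSG00000022871.8, chromosome 16, 22918334 to 22939778, plus strand) stood at 453 TPM (pup 1) and 497 TPM (pup 2), a mean of 475 ± 31.0 TPM. Ahsg was thus 48.4-fold above its neighbouring paralog (log2 ratio 5.60 ± 0.16), a gap many times the spread between the livers.

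The kininogens were also far apart. Kng1 (ENSMUSG00000022875.13, chromosome 16, 23057865 to 23082078, plus strand) stood at 4683 TPM (pup 1) and 4759.6 TPM (pup 2), and Kng2 (ENSMUSG00000060459.9, chromosome 16, 22985854 to 23029482, minus strand) at 302 TPM (pup 1) and 332 TPM (pup 2). Kng1 held 93.7% ± 0.325 of the TPM of the pair and lay 3.90 ± 0.080 above Kng2 on the log2 scale, or 14.9-fold. The mouse genome has this pair where the human genome has 1 kininogen gene. Hrg (ENSMUSG00000022877.8, chromosome 16, 22951072 to 22961656, plus strand), whose product binds heparin, plasminogen and complement, stood at 387 TPM (pup 1) and 469.95 TPM (pup 2). Its level was below that of Plg, the plasminogen gene (1005 ± 29.9 TPM), by a log2 ratio of -1.24 ± 0.24 (-1.94 ± 0.24 by expected counts, which are not corrected for length).

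In the inter-alpha-trypsin inhibitor family the order of levels in TPM was Itih3, Itih4, Itih2, Itih1. By expected counts, which are not corrected for length, Itih4 lay below Itih2 in both livers. Itih3 (ENSMUSG00000006522.11, chromosome 14, 30908572 to 30923760, minus strand) stood at 1694 TPM (pup 1) and 1493 TPM (pup 2). Itih4 (ENSMUSG00000021922.11, chromosome 14, 30886476 to 30902353, plus strand), a heavy-chain relative that is not joined to bikunin, stood at 592 TPM (pup 1) and 563 TPM (pup 2). Itih2 (ENSMUSG00000037254.14, chromosome 2, 10094593 to 10131396, minus strand) stood at 480.2 TPM (pup 1) and 459 TPM (pup 2). In TPM, Itih1 (ENSMUSG00000006529.10, chromosome 14, 30929180 to 30943289, minus strand) was the lowest of the 10 genes, at 185 TPM (pup 1) and 150.25 TPM (pup 2). By expected counts Kng2 was lower than Itih1 in pup 1. Each of the 4 Itih genes read higher in pup 1. Itih3 made up 71.4% ± 0.569 of the summed TPM of the heavy chains that join bikunin (Itih1 to Itih3).

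Ambp (ENSMUSG00000028356.4, chromosome 4, 63143275 to 63154799, minus strand), whose product is cut into bikunin and the lipocalin alpha-1-microglobulin, stood at 2149 TPM (pup 1) and 2184 TPM (pup 2). Its mean of 2167 ± 24.3 TPM lay above each of the heavy chains Itih1, Itih2 and Itih3 by 13.0-fold, 4.61-fold and 1.36-fold. By expected counts, which are not corrected for length, the log2 ratios of Ambp to these genes were 2.38 ± 0.22, 0.85 ± 0.063 and -0.85 ± 0.14, so that the order of Ambp and Itih3 turned. The summed level of those 3 heavy chains was 2359 TPM in pup 1 and 2102 TPM in pup 2, so Ambp was below the sum in pup 1 and above it in pup 2. The log2 ratio of Ambp to the sum was -0.04 ± 0.13, within the spread between the livers, while by expected counts it was -1.35 ± 0.13. Itih5, a heavy-chain gene beside Itih2 that was not among the 10, stood at 2.65 ± 0.247 TPM, 178-fold below Itih2, a log2 ratio of 7.47 ± 0.089 (6.09 ± 0.086 by expected counts).

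A log2 ratio was called beyond the spread where it had the same sign in both livers and its mean exceeded 3 SD; with 2 livers no exact test can give a p under 0.5, so no p-values are printed. Of the 9 steps between neighbours in the order of levels, 6 passed. Ahsg stood above Kng1 by 2.28 ± 0.083, Kng1 above Ambp by 1.12 ± 0.00038, Ambp above Itih3 by 0.45 ± 0.15 and Itih3 above Itih4 by 1.46 ± 0.076 (log2). Lower down, Hrg stood above Kng2 by 0.43 ± 0.10 and Kng2 above Itih1 by 0.93 ± 0.31. By expected counts Kng2 lay below Itih1 in pup 1 (16006.97 against 19092) and above it in pup 2 (17732.92 against 15723). Itih4, Fetub, Itih2 and Hrg, whose means ran from 578 to 428 TPM, were not separated step by step: the steps between them were 0.28 ± 0.15, 0.02 ± 0.14 and 0.14 ± 0.24. Fetub was below Itih2 in pup 1 and above it in pup 2, and Itih2 was above Hrg in pup 1 and below it in pup 2. In TPM Itih4 read above Fetub, Itih2 and Hrg in both livers. Its ratio to Itih2, 2 places down, was beyond the spread at 0.30 ± 0.0067 (log2). The ratio of Itih4 to Hrg (0.44 ± 0.25) and that of Fetub to Hrg (0.15 ± 0.10) were not. By expected counts Itih4 (50645 in pup 1, 47217 in pup 2) lay below Itih2 (51231 and 49266). The order of Itih4 and Itih2 thus depends on the correction for length. It also rests on 1 short Itih4 transcript of 795 bases (ENSMUST00000134988.1), which is not in GENCODE M21. That transcript gave 150.75 TPM of Itih4 in pup 1 and 158.16 TPM in pup 2. These amounts exceed the lead of Itih4 over Itih2 and over Fetub in each liver. Of the 19 fixed pairs compared, 18 were beyond the spread, and the exception among them was Ambp against the heavy-chain sum. By expected counts, which grow with transcript length, that pair passed too and all 19 did. The pairs among Itih4, Fetub, Itih2 and Hrg that were not beyond the spread are not part of these 19.

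**Figure D1:**
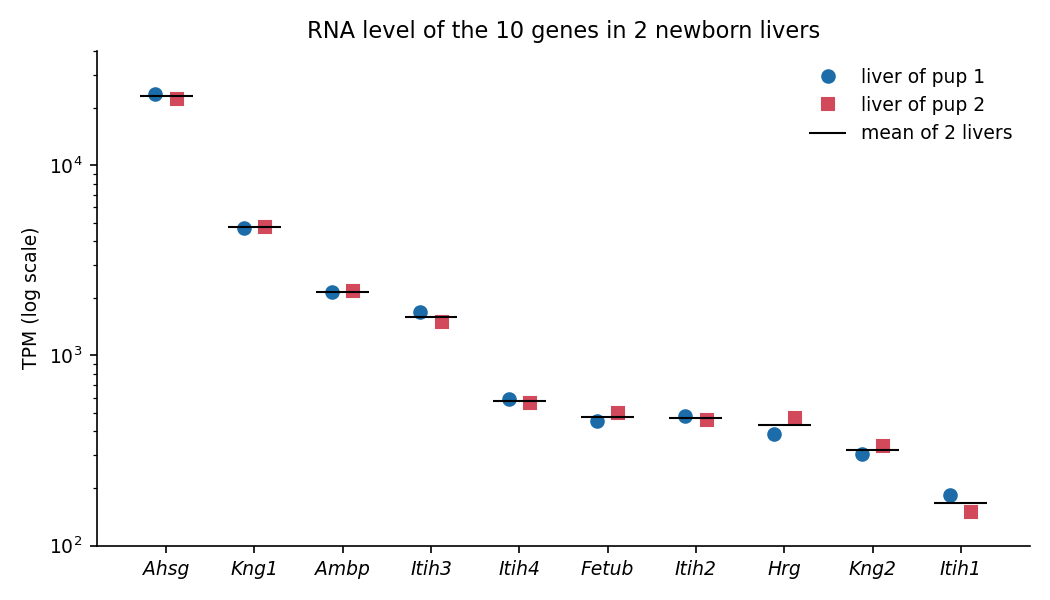
RNA level in TPM (log axis) of the 10 genes in the livers of pup 1 (circles) and pup 2 (squares), with the mean of the 2 livers as a line. Ahsg at 22996 TPM stands apart from the rest, and Itih4, Fetub, Itih2 and Hrg lie close together.

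Transcript choice differed among the genes. Of the 33 transcripts, 16 held 5% or more of their gene's TPM in either liver, and 6 of the 10 genes had 1 such transcript. Ahsg and Hrg had 1 annotated transcript each. Ambp-201 held 99.97% of Ambp in both livers, Itih2-201 held 99.8% ± 0.0636, Kng2-203 97.5% ± 0.962 and Itih3-201 94.9% ± 0.601. Fetub, Itih1, Itih4 and Kng1 had several. The deposited percentages are estimates of how reads divide among overlapping models, made on the GENCODE M4 models. For 26 of the 33 transcripts the identifier was also found in the newer GENCODE M21 annotation, used here for exons and coordinates, with the same length for 17 and another length for 9. The 9 include Ahsg-201, Kng1-202, Kng1-203, Fetub-201, Fetub-202, Fetub-204, Itih3-201 and Itih4-201, so the exons, starts and ends given for these are those of M21 and may differ from the models the percentages were estimated on.

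Kng1 gave the clearest division of transcripts. Kininogen genes make their long, high-molecular-weight product by reading on in the exon that encodes bradykinin, and their short, low-molecular-weight product by splicing from within that exon to a further one. Kng1-202, which has the short form's 11 exons and ends in the exon at 23081478 to 23082078, held 76.4% of Kng1 in pup 1 and 77.7% in pup 2. Kng1-201, which reads on in the long last exon, held 4.61% in pup 1 and 4.44% in pup 2. Kng1-203, which removes 543 bases of that long exon and then rejoins its later part, held 18.8% in pup 1 and 17.6% in pup 2. In TPM, the 3 forms stood at 3639 ± 84.8, 213 ± 3.20 and 859 ± 27.5 (Kng1-202, Kng1-201 and Kng1-203). Kng1-202 was above the other forms in both livers. In Kng2 the short form Kng2-203 stood at 309 ± 17.6 TPM, while the reading-on form Kng2-202 held 1.45% of the gene in pup 1 and 1.75% in pup 2. Another model, Kng2-201, held 0.08% in pup 1 and 1.16% in pup 2, or 13.3 and 206 expected counts.

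The sequences where these forms part are given from GENCODE M21 models on GRCm38 and in the direction of each gene. The lower-case run is shared by the forms of 1 gene: 63 coding bases that begin with the 27 bases for bradykinin. The capitals are the next 30 bases of the named transcript; those of Kng1-203 and Kng2-201 lie further along in the long exon, which Kng1-201 and Kng2-202 also contain. For Kng1 (plus strand) the shared run is chr16:23078989-23079051, and the capitals are chr16:23081478-23081507 in Kng1-202, chr16:23079595-23079624 in Kng1-203 and chr16:23079052-23079081 in Kng1-201. For Kng2 (minus strand) the shared run is chr16:22988245-22988307, and the capitals are chr16:22986039-22986068 in Kng2-203, chr16:22988215-22988244 in Kng2-202 and chr16:22987596-22987625 in Kng2-201.
Kng1-202: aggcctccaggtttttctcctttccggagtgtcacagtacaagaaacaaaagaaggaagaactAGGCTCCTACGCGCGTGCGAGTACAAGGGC
Kng2-203: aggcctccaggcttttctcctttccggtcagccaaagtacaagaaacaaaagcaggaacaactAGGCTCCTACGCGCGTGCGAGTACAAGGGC
Kng1-203: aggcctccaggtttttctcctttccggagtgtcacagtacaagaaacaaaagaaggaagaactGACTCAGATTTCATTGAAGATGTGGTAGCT
Kng1-201: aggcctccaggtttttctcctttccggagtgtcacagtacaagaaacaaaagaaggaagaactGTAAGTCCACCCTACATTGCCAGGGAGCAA
Kng2-202: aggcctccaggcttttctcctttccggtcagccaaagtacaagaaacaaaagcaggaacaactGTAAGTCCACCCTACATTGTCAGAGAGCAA
Kng2-201: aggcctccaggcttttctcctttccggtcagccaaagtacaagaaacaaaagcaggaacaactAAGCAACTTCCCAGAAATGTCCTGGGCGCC

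The bradykinin codons of the genes differ at 1 base, T12C, counted from 1 at the first base of the run, with the base of Kng1 first. Over the 63 shared bases Kng1 and Kng2 differ at 8. The capitals of Kng1-202 and Kng2-203, the leading forms, are the same 30 bases, whereas those of Kng1-201 and Kng2-202 differ at 2. Over their whole coding sequences Kng1-202 and Kng2-203 were identical at 91.8% of the 1299 aligned columns, gaps included. Windows of 100 bases, the read length implied by the tables, were shared exactly at 142 of 1896 positions of Kng1-202 and 142 of 1478 positions of Kng2-203. No such window was shared between the other pairs compared, whose coding identity ran from 41.2% (Ahsg and Hrg) to 62.9% (Itih1 and Itih3). The deposited counts of 8 of the 10 genes were whole numbers, to within 0.005, and those of Kng1 and Kng2 were not. Kng1 had 305780.03 expected counts in pup 1 and 313366.08 in pup 2, Kng2 had 16006.97 and 17732.92, and the sums of the pair were whole at 321787 and 331099. The shared windows made up 7.49% of the positions of Kng1-202 and 9.61% of those of Kng2-203, and the division of their reads between the genes is uncertain.

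Fetub transcripts differ in where they start. Fetub-201 held 82.2% of the gene in pup 1 and 79.4% in pup 2. Fetub-203, with a start further downstream, held 10.7% in pup 1 and 9.52% in pup 2, and Fetub-202 held 7.10% in pup 1 and 11.1% in pup 2. Fetub-202 was the higher of the last pair in pup 2 and the lower in pup 1. Fetub-204, the only model that starts at the upstream site, held 14.4 expected counts in pup 1 and 0 in pup 2. RefSeq (GRCm38.p6) lists both starts, and the 250 bases before each are printed here because the reads of this gene fall almost wholly on transcripts of the downstream ones. The upstream window is chr16:22918132-22918381 and the downstream window chr16:22919972-22920221, both on the plus strand. Capitals mark a TATAAA match in the upstream window and a TGTTTAC match in the downstream window.
Fetub upstream: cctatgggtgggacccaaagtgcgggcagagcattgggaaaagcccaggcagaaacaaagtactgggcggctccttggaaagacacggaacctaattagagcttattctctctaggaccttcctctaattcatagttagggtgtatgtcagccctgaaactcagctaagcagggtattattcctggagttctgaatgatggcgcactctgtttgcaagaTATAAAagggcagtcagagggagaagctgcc
Fetub downstream: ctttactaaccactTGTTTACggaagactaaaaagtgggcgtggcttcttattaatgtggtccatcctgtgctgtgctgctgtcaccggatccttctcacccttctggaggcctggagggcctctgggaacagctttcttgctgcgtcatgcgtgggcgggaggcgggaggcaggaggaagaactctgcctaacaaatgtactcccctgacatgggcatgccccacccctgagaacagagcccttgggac

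Itih1 and Itih4 each divided their TPM among several heavy-chain transcripts. Itih1-202 held 88.0% ± 0.368 and Itih1-201 9.68% ± 0.00707 of Itih1. Itih4-201 held 41.96% of Itih4 in pup 1 and 41.5% in pup 2, and Itih4-202 held 30.1% in pup 1 and 27.2% in pup 2. A short Itih4 transcript of 795 bases (ENSMUST00000134988.1, not placed in the annotation used here) held 25.4% in pup 1 and 28.1% in pup 2 of the TPM, but 7.86% ± 0.692 of the expected counts of Itih4. By expected counts Itih4-201 held 53.8% ± 0.512, so the division of Itih4 depends on the correction for length.

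**Figure D2:**
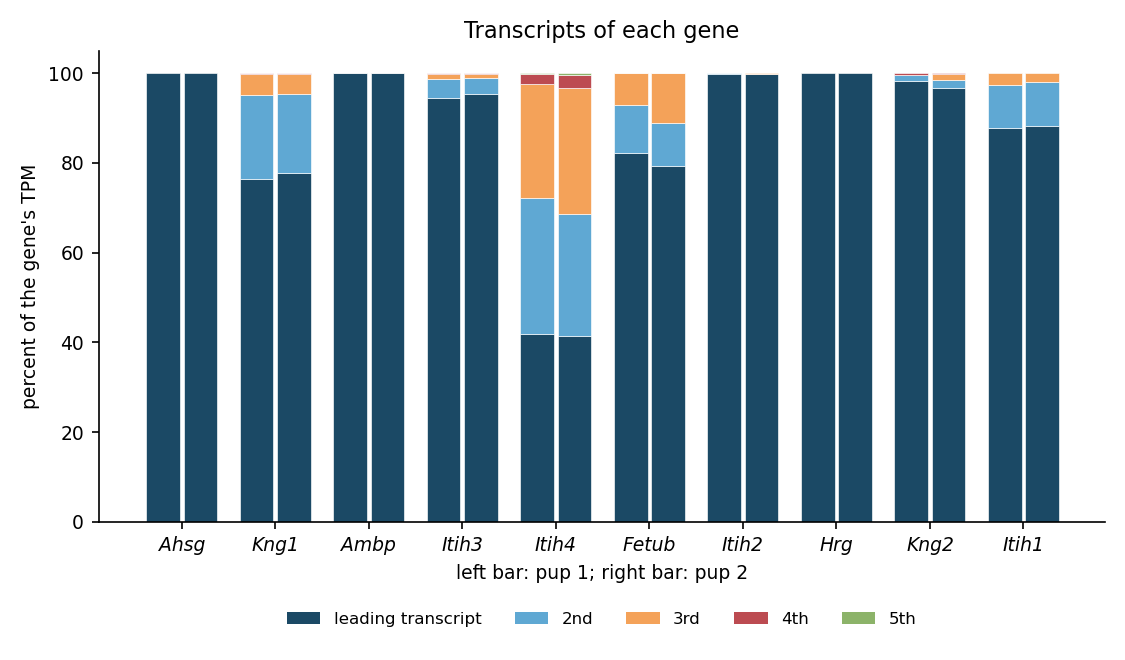
Percent of each gene's TPM held by its transcripts, stacked from the leading one upward, with pup 1 as the left and pup 2 as the right bar of each gene. Itih4 is divided among 3 transcripts, Kng1 and Fetub have a leading transcript with 77.1% and 80.8%, and Ahsg and Hrg have 1 transcript.

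None of the 10 genes was at least 2-fold apart between the livers (on log2(TPM + 1), with credible intervals that do not overlap). Only 0.629% of 12711 genes at a mean of 1 TPM or more were, so this does not set the 10 genes apart. The log2 ratio of pup 2 to pup 1 ran from -0.29 for Itih1 to 0.28 for Hrg. Kng1 and Ambp read nearly alike in both livers, at 0.02 each, and Ahsg lay at -0.09. Kng2 (0.14), Fetub (0.13), Itih3 (-0.18), Itih4 (-0.07) and Itih2 (-0.06) lay between. The SD of the 10 ratios was 0.17, beside 0.13 for the 1046 genes at 100 TPM or more in both livers. The median size of the log2 ratio, without its sign, was 0.11 for the 10 genes and 0.062 for those 1046. Since each pup gave 1 library, these differences have no replicate check.

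The authors' credible intervals of TPM, which cover counting and read assignment in 1 library, did not overlap for any of the 10 genes. They were higher in pup 2 for Kng1, Kng2, Ambp, Fetub and Hrg, and lower for Ahsg and the 4 heavy-chain genes. Over all 12711 genes the intervals were apart and higher in pup 2 for 6.27%, and apart and lower for 13.8%. Among the genes at 100 TPM or more, whose intervals are narrow, the percentages were 20.5% and 23.4%. Each direction held 5 of the 10 genes, and the lowest count of any of them in a library was 15723. The intervals belong to a posterior mean estimate, and for 8 of the 10 genes the TPM lay above them in both livers.

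Among the marker lists of other tissues, those of striated muscle and pancreas differed between the livers. All 6 striated muscle markers were at least 2-fold higher in pup 2, with summed levels of 48.0 TPM in pup 1 and 709.8 TPM in pup 2, and so were all 6 pancreas markers, with 1.99 and 98.4 TPM. Ins2 was at 0 in pup 1. Hepatocyte markers summed to 83785 and 78547 TPM, and bile duct markers to 105 and 75.6 TPM. Kidney markers were at or near 0 in both livers (4 of 5 at 0 in both). No intestine marker was at least 2-fold apart, with summed levels of 37.3 TPM in pup 1 and 42.2 TPM in pup 2. The part of these lists in the differences of the 10 genes was not tested.

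**Figure D3:**
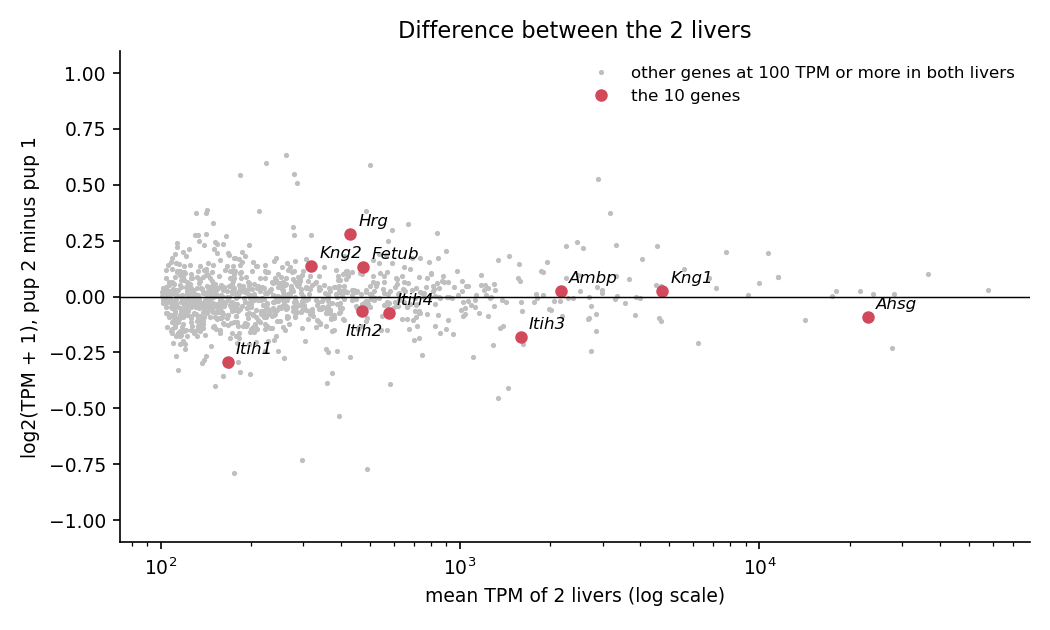
Difference between the livers, as log2(TPM + 1) in pup 2 minus pup 1, against mean TPM (log axis), for the 1046 genes at 100 TPM or more in both livers (grey), among them the 10 genes (red). The 10 genes lie between -0.29 and 0.28, within the range of the other genes.

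Of the 10 genes, 8 lie in 2 clusters. Ahsg, Fetub, Hrg, Kng2 and Kng1 span 190802 bases of chromosome 16 (22891277 to 23082078), in that order, and together held 2.89% ± 0.0887 of all TPM. Itih4, Itih3 and Itih1 span 56814 bases of chromosome 14 (30886476 to 30943289) and held 0.234% ± 0.0188. Itih2 and Ambp lie alone on chromosomes 2 and 4. Within 100 kb of a member, 35 other annotated genes had a median level of 2.28 TPM. Among them 11 stood at 10 TPM or more, 2 at 100 TPM or more and 15 under 1 TPM. Only 21 of the 35 are protein-coding. The others include small nucleolar and small nuclear RNA genes, most of them under 1 TPM. Their RNAs are shorter than the 200 nt above which RNA was used, so their low levels cannot be read as a lack of RNA. The median and the count under 1 TPM rest partly on them. On chromosome 16 none of the 15 neighbours passed 50.6 TPM. Dnajb11, a chaperone gene of the endoplasmic reticulum that lies 11643 bases before Ahsg, stood at 43.3 ± 0.580 TPM. Beyond Kng1 the translation factor gene Eif4a2 stood at 44.5 ± 2.31 TPM and the replication factor gene Rfc4 at 50.6 ± 2.98 TPM. The small nucleolar RNA Gm24616, inside Eif4a2, read 29.4 ± 14.7 TPM, which rests on only 27 expected counts in pup 1 and 57 in pup 2. One neighbour overlaps a member: the processed pseudogene Gm6493 lies inside Kng2 on the same strand and stood at 0.24 ± 0.0283 TPM.

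Around the heavy chains on chromosome 14, Spcs1, a signal peptidase subunit gene, reached 311 ± 10.4 TPM, above Itih1. Gnl3 stood at 31.3 ± 1.75 TPM, Pbrm1 at 27.6 ± 1.44 TPM, Sfmbt1 at 13.3 ± 0.396 TPM and Tmem110 at 11.005 ± 1.61 TPM, all below the 3 heavy chains between them. Near Itih2, the mitochondrial ATP synthase gene Atp5c1 stood at 386 ± 1.97 TPM, close to the 469.6 ± 14.9 TPM of Itih2 itself, and Kin at 13.9 ± 0.148 TPM. No neighbour of Ambp reached 10 TPM.

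**Figure D4:**
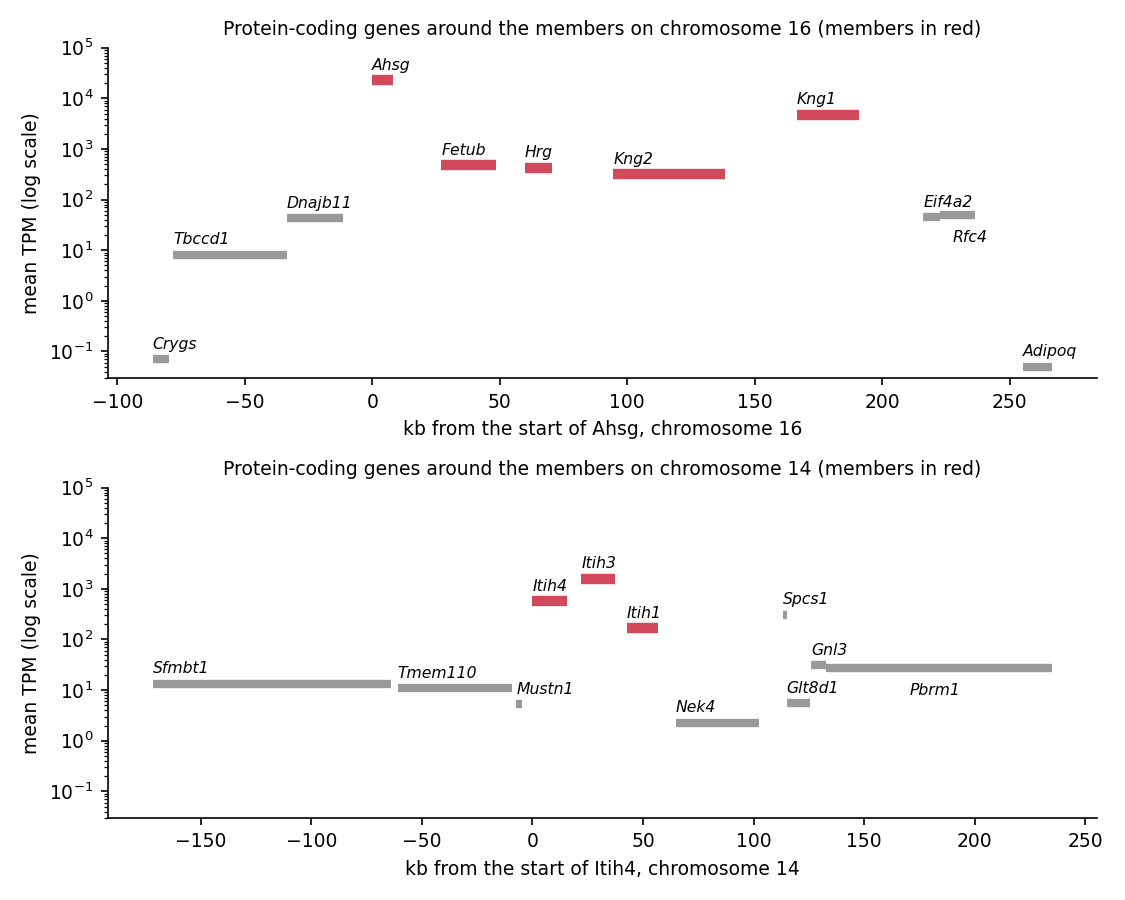
Mean TPM (log axis) of protein-coding genes within 100 kb of the members on chromosome 16 (top, distance in kb from the start of Ahsg) and chromosome 14 (bottom, distance from the start of Itih4), with members in red and a bar spanning each gene; levels under 0.05 TPM are drawn at 0.05. The 5 members on chromosome 16 lie above all protein-coding neighbours, whereas on chromosome 14 Spcs1 lies above Itih1.

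RefSeq promoter windows, the 250 bases before a start, were held for 9 of the 10 genes, as 10 windows; Kng1 had none. Letters of 5 motifs bound by liver factors or the basal machinery were searched on both strands. The C/EBP letters TTGCNNAA were found in the windows of Ahsg, Hrg, Itih2 and Kng2, 4 of 10, and in 9.57% of all 32841 windows of that length. The HNF1 half-site letters GTTAAT were found for Itih1 (6.43% of all windows), the FOXA letters TGTTTAC in the downstream window of Fetub (3.17%), and TATAAA in its upstream window (12.4%). The HNF4 letters CAAAGTCCA were found in none of the 10 windows and in 0.384% of all. Cebpa, which encodes a C/EBP factor, stood at 16.4 TPM (pup 1) and 27.8 TPM (pup 2), and Cebpb at 24.1 TPM (pup 1) and 38.0 TPM (pup 2).

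The partners of these proteins were read from 9 lists with 100 distinct genes in the tables; 68 were detected at 1 TPM or more in both livers, 16 stood at 100 TPM or more in both, and none was at least 2-fold apart between the livers. In the kinin list 6 of 14 genes were detected. F12, which starts the contact system, stood at 359 ± 11.3 TPM, so Kng1 lay 13.2-fold above it. Cpb2, a carboxypeptidase that removes arginine from kinins, stood at 354 ± 2.84 TPM, and Serping1, the C1 inhibitor that blocks kallikrein, at 306 ± 5.80 TPM. F11, whose product circulates bound to high-molecular-weight kininogen, stood at 49.6 ± 3.37 TPM, 95.3-fold below Kng1 as a whole gene. Most of the Kng1 level is the short form, and the long form Kng1-201 alone stood at 213 ± 3.20 TPM. The kinin receptor genes Bdkrb1 and Bdkrb2 had at most 2 expected counts in either liver, under the limit of 3 counts that a count of 0 allows.

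In the hyaluronan list 7 of 15 genes were detected. Hyal2, a hyaluronidase, stood at 47.3 ± 0.0495 TPM, and the hyaluronan receptor genes Lyve1 and Stab2, markers of liver endothelium, at 37.0 ± 4.31 and 36.4 ± 3.96 TPM. Tnfaip6, which encodes the enzyme that passes heavy chains to hyaluronan, stood at 0.24 ± 0.0707 TPM. The hyaluronan synthase genes Has1, Has2 and Has3 stood at 0.06 TPM or less. Itih3 at 1593 ± 142 TPM and Ambp at 2167 ± 24.3 TPM lay above every gene of this list.

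Of 13 genes that build the chondroitin sulfate chain of bikunin or cut the Ambp precursor, 11 were detected. B3gat3, which completes the linker of the chain, stood at 17.9 ± 1.24 TPM, the protease gene Furin at 15.6 ± 0.0990 TPM and the sulfotransferase gene Chst12 at 7.64 ± 0.276 TPM. Each lay more than 100-fold under Ambp. Among the lipocalins, the family of alpha-1-microglobulin, 5 of 10 were detected: Rbp4, the retinol carrier, stood at 6807 ± 270.1 TPM, above Ambp by 1.65 ± 0.041 on the log2 scale, with Apom at 1060 ± 9.79 TPM and Lcn2 at 363 ± 7.21 TPM.

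The cystatin list, relatives of the fetuins and kininogens, had 3 of 8 genes detected: Cst3 at 266 ± 11.8 TPM, Cstb at 160.5 ± 7.13 TPM and Cst7 at 6.88 ± 0.417 TPM. All 6 lysosomal cysteine proteases, the enzymes that cystatin domains of kininogens inhibit, were detected, led by Ctsl at 899 ± 89.9 TPM, Ctsh at 298 ± 14.4 TPM and Ctsb at 235 ± 6.87 TPM. Kng1 stood above each of them. Of the 12 fetuin partners 9 were detected, with the asialoglycoprotein receptor genes Asgr1 at 402 ± 0.346 TPM and Asgr2 at 44.3 ± 2.81 TPM, and Spp1, whose product also binds mineral, at 77.4 ± 18.5 TPM. Astl, which encodes ovastacin, the target of fetuin-B, had 0 counts in both livers.

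Of the 11 Hrg partners 10 were detected, led by Plg and F12, with the complement gene C1qa at 110.4 ± 3.36 TPM. All 12 liver transcription factor genes were detected, with Ppara at 153 ± 11.1 TPM, Foxa3 at 63.6 ± 13.9 TPM and Nr1h4 at 34.7 ± 4.89 TPM. Each of the 10 genes stood above Ppara in both livers, and Itih1 came nearest to it.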

How the data were processed

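Each liver had 1 gene table and 1 transcript table in the layout of RSEM; deposited notes name mm10 and GENCODE M4, and the aligner, counter and versions used are not stated in the sources used here. Per gene, expected counts, TPM and FPKM, with posterior mean TPM and its credible bounds (level not given), were deposited by the authors, as was the percent of a gene's TPM held by each transcript.

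Symbols and coordinates came from GENCODE M21 on GRCm38, the assembly mm10 names, by Ensembl identifier without version; 42462 of 43346 matched. The listed kallikrein gene Klkb1 was not matched. Means and SD over 2 livers were computed on TPM as deposited, and no test between groups was made. The pups being littermates, the SD covers their spread and technical error. Differences between livers used log2(TPM + 1) and a mean of 1 TPM or more. The limit that 0 counts allow is 3 counts, or 0.0712 CPM in pup 1 and 0.0724 CPM in pup 2, for counting error only. Per the labels, total RNA-seq was made from 10 ng of RNA over 200 nt, but they also cite a low-input cDNA kit, so priming and strandedness are open. ERCC spike-ins took 163 and 190 counts.

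The 10 genes, the gene lists and the rules were chosen with earlier results of these data known. Named genes are the 10 genes, their transcripts with 5% or more, the fixed pairs, the 3 highest of each list and neighbours within 100 kb at 10 TPM or more; Bdkrb1, Bdkrb2, Tnfaip6, the Has genes, Astl, Cebpa, Cebpb, Gm6493, Ins2, Fetub-204, Kng2-201, Kng2-202 and Kng1-201 were named after their values were seen. Alternatives used posterior mean TPM, FPKM, expected counts (rounded to whole numbers for the scaling), other pseudocounts and filters, TMM factors (edgeR 4.0.16), DESeq2 1.42.0 size factors and spike-in totals, and each liver alone. On simulated counts for the pup comparison (41128 genes, Poisson error only), the rule of size called all 200 genes changed 4-fold and 1 other. The changed genes were drawn from those at a mean of 10 TPM or more. Changes nearer 2-fold, changes in lower genes and the spread between animals were not simulated. Sequences were aligned with Biopython 1.88, and Python 3.11.15 and R 4.3.3 were used.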

Additional observations from a re-analysis of the deposited data

How the results depend on the processing

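No paired analysis was possible because both livers belong to 1 group. The share of all TPM held by the 10 genes, 3.39%, was 4.49% by expected counts and 4.69% over protein-coding nuclear genes without adult globins. With a mean of 10 TPM or more, 22 genes in place of 80 were at least 2-fold apart and 1696 in place of 2557 had credible intervals apart, as fewer genes were tested. The number of steps beyond the spread was 6 with FPKM and with posterior mean TPM. FPKM is proportional to TPM within a library, so its ratios could not differ. The steps were not counted by expected counts, by which the order of Ambp and Itih3 turned. The number of detected partner genes was 73 at 0.5 TPM and 49 at 5 TPM, in place of 68. All 10 genes stood at 100 or more in both livers with FPKM and with posterior mean TPM.

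Spike-in totals, which rest on 163 and 190 counts, moved the median log2 ratio of all genes by -0.20, and on that scale Fetub (-0.086), Kng1 (-0.19), Kng2 (-0.073) and Ambp (-0.19) read lower in pup 2; relative to the shift they did not change side. With TMM factors Itih2 lay at 0.0028 in place of -0.06. By expected counts, which are not per length, Ambp lay 0.85 below Itih3 (log2 ratio -0.85 ± 0.14), and Ambp lay beyond the spread below the heavy-chain sum (-1.35 ± 0.13), so that 19 of 19 pairs passed. With 1 liver at a time, Fetub over Itih2 ran from -0.083 to 0.11, Itih2 over Hrg from -0.034 to 0.31 and Ambp over the heavy-chain sum from -0.13 to 0.055. Depth did not limit the members, whose lowest count was 15723.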
